A study of Homo sapiens with 6 samples.

Results

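The RNA interference machinery was examined as 10 genes, taken by symbol from the 58735 genes of each deposited table: the nuclear processing pair DROSHA and DGCR8, the cytoplasmic RNase DICER1, the argonautes AGO1, AGO2, AGO3 and AGO4, and the scaffold proteins TNRC6A, TNRC6B and TNRC6C. All 10 were found once in each table. RNA-seq had been made from SKOV3, an established human ovarian cancer cell line that grows attached, 24 h after one of 2 treatments: siHJURP, a small interfering RNA (siRNA) against HJURP, the chaperone of the centromeric histone CENPA, or the negative control (NC). Both groups therefore carried a transfected duplex, and untransfected cells were not analysed here. There were 3 libraries in each group. The design text speaks of biological and of experimental triplicates without saying which of these the libraries are, so the p-values measure the spread between these libraries, which may be technical.

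MicroRNAs and siRNAs share the last steps of one pathway. DROSHA, with its RNA-binding partner DGCR8, cuts hairpins out of primary microRNA transcripts in the nucleus, and DICER1 trims the exported hairpins to short duplexes. One strand is then held by an argonaute protein, of which AGO2 is the main one that cuts a fully matched target, the step that an siRNA relies on. On partly matched targets the argonautes work through TNRC6 proteins (also called GW182), which recruit deadenylases and so lead to translational repression and decay of the messenger. The complex of DROSHA and DGCR8 is also known to cut hairpins within the DGCR8 messenger, so that the pair controls its own amount.

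The hairpins in DGCR8 encode annotated microRNAs, shown here because both lie in exons of a gene whose level differed between the groups. Their mature sequences, 5′ to 3′ from RefSeq (GRCh38.p14, plus strand), have the seed, bases 2 to 8, in capitals.
hsa-miR-3618: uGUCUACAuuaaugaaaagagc
hsa-miR-1306-5p: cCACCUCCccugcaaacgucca
hsa-miR-1306-3p: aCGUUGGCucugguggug
The first, at chr22:20085797-20085818, lies in an untranslated part of a DGCR8 exon in GENCODE 29. The others, at chr22:20086072-20086093 and chr22:20086112-20086129, lie in coding sequence. The tables also list the hairpins MIR3618 and MIR1306 as genes of their own, at 0 reads in all 6 libraries, and reads in those exons cannot be assigned to a cut or an intact transcript. DICER1 holds 1 microRNA gene, MIR3173, in an intron, with 0 to 2 reads per library.

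The values are FPKM, fragments scaled to gene length and library size, as the authors deposited them. The libraries held 17524772 to 18027065 reads in genes in siHJURP and 17116487 to 17625638 in NC, and the 10 genes had between 426 and 3922 reads each per library. The silenced gene HJURP (ENSG00000123485) had 8.65 ± 0.010 FPKM in siHJURP and 29.4 ± 0.512 FPKM in NC (mean ± SD, n = 3 in each group here and below), which was 70.6% lower. Of the 9 markers of SKOV3 and ovarian carcinoma cells, 8 passed the filter on low values. EPCAM did not, at 0.502 ± 0.188 FPKM in siHJURP and 0.387 ± 0.0984 FPKM in NC. The sum of all 9 was 617.7 to 660.5 FPKM in siHJURP and 671 to 675 FPKM in NC. Within that sum ERBB2 and MUC1 were called higher in siHJURP, KRT8, KRT18, KRT19, PAX8 and SOX17 were called lower and KRT7 was not called. ERBB2 had 343 ± 24.7 FPKM in siHJURP and 264 ± 9.66 FPKM in NC, and SOX17 11.1 ± 0.363 FPKM in siHJURP and 22.1 ± 1.29 FPKM in NC. Their part in the results was not tested. The 5 leukocyte markers summed to at most 0.588 FPKM in siHJURP and 0.952 FPKM in NC, the 3 endothelial markers to at most 0.0685 FPKM in siHJURP and 0.221 FPKM in NC, and CD3E and HBA1 were listed at 0 throughout. The 4 fibroblast markers summed to 11 to 15.5 FPKM in siHJURP and 12.5 to 16.5 FPKM in NC. Most of it was COL1A1, with 11.9 ± 2.19 FPKM in siHJURP and 13.4 ± 2.03 FPKM in NC (not called). COL3A1, too low to be tested, went the other way, with 0.909 ± 0.106 FPKM in siHJURP and 0.300 ± 0.0693 FPKM in NC.

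Of the 10 genes, DROSHA was higher in siHJURP cells, AGO2, TNRC6A and DGCR8 were lower, and the other 6 did not pass the test. Genes were compared with limma on log2(FPKM + 1), and a gene was called at a Benjamini-Hochberg adjusted p under 0.05 over all 13365 genes with a mean of at least 1 FPKM, which took in all 10. The 4 calls stand against a background of 37.9% of all tested genes, with 17.6% called higher and 20.3% called lower, so the count of 4 in 10 is near the background. The median log2 fold change of the 10 was -0.12, against -0.01 over all tested genes, and the median size of the fold change was 0.18 against 0.17. For 6 of the 10 genes the ranges of siHJURP and NC were apart, as they were for 52.2% of all tested genes. In bulk RNA, fewer cells of a kind and less RNA per cell cannot be told apart.

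**Figure D1:**
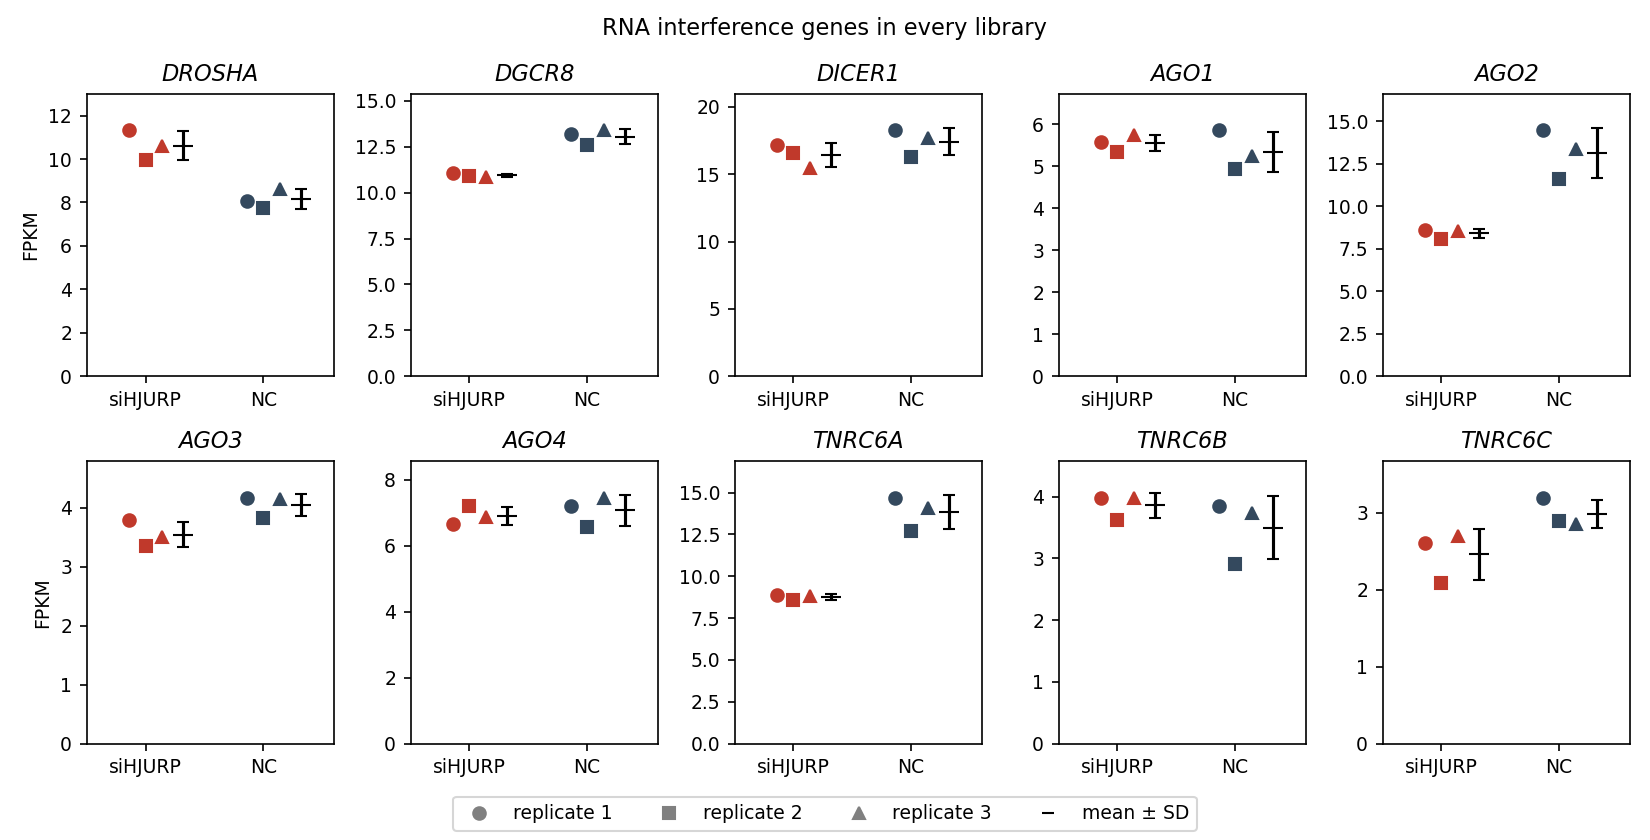
FPKM of each gene (vertical axes, from 0) in the 3 siHJURP libraries (red, left) and the 3 NC libraries (dark, right), with the marker shape giving the replicate and the bar the mean ± SD. AGO2 and TNRC6A lie below 9 FPKM in every siHJURP library and above 11 FPKM in every NC library, while the groups of DICER1, AGO1, AGO4 and TNRC6B overlap.

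DROSHA (ENSG00000113360, chromosome 5, 31400497 to 31532196, minus strand, hg38) encodes the RNase III that starts microRNA maturation. Replicates 1, 2 and 3 of siHJURP stood at 11.3, 9.95 and 10.6 FPKM, against 8.07, 7.73 and 8.64 FPKM in those of NC. Every siHJURP library was above every NC library. The means of 10.6 ± 0.687 FPKM in siHJURP and 8.15 ± 0.458 FPKM in NC differed by 30.4% (log2 0.35, SE 0.060, limma adjusted p = 0.00437).

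DGCR8 (ENSG00000128191, chromosome 22, 20080232 to 20111877, plus strand), the RNA-binding partner of DROSHA, moved the other way. It had 11.05, 10.9 and 10.9 FPKM in the siHJURP replicates and 13.2, 12.6 and 13.4 FPKM in the NC replicates. The siHJURP libraries lay within a narrow band below all NC libraries. The fall was 16.2%, to 10.9 ± 0.0884 FPKM in siHJURP against 13.1 ± 0.403 FPKM in NC (log2 -0.23, SE 0.039, limma adjusted p = 0.00347). TRMT2A, a tRNA methyltransferase gene on the opposite strand, is the only tested gene that overlaps any of the 10. It had 8.05 ± 0.348 FPKM in siHJURP and 8.06 ± 0.608 FPKM in NC (limma adjusted p = 0.997).

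Because DROSHA and DGCR8 act as one complex, their ratio was taken within each library, where the scaling between libraries cancels. The log2 ratio of DROSHA over DGCR8 was 0.04, -0.14 and -0.04 in the siHJURP replicates, against -0.71, -0.71 and -0.63 in the NC replicates. The transcripts were thus at nearly equal FPKM in siHJURP cells, while in NC cells DROSHA was below DGCR8. The difference between the groups was 0.64 (two-sided exact permutation test p = 0.1, the smallest that 3 against 3 allows). Over the 9 ratios and shares compared in this way the adjusted p was 0.129, also for the other measures at 0.1, so none of the 9 could pass the 0.05 threshold in this design.

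DICER1 (ENSG00000100697, chromosome 14) was the highest of the 10 genes in both groups. It had 17.2, 16.6 and 15.5 FPKM in the siHJURP replicates, against 18.3, 16.3 and 17.7 FPKM in the NC replicates. The groups overlapped, and the mean was 16.4 ± 0.88 FPKM in siHJURP and 17.4 ± 1.02 FPKM in NC. The log2 fold change of -0.08 had a 95% interval of -0.22 to 0.06 (limma adjusted p = 0.32). Relative to DROSHA, the log2 ratio of DICER1 was 0.60, 0.74 and 0.55 in the siHJURP replicates, against 1.18, 1.07 and 1.03 in the NC replicates (exact permutation p = 0.1). The antisense transcript DICER1-AS1 had 20 to 50 reads per library, against at least 3424 of DICER1.

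Among the argonautes, the transcript of AGO2, the main slicing member, was lower in siHJURP cells. AGO2 (ENSG00000123908, chromosome 8, 140520156 to 140635619, minus strand) had 8.60, 8.10 and 8.52 FPKM in the siHJURP replicates, against 14.5, 11.6 and 13.4 FPKM in the NC replicates. All siHJURP libraries were below all NC libraries, and the spread was wider in NC. The mean fell to 8.41 ± 0.271 FPKM in siHJURP, against 13.1 ± 1.46 FPKM in NC, a fall of 36.0% (log2 -0.58, SE 0.077, limma adjusted p = 0.00132). This was rank 628 from the lowest of the 13365 fold changes.

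The other argonautes bind small RNAs and repress targets, and their genes AGO4, AGO1 and AGO3 stand in a row on chromosome 1 on the plus strand. Only 189 bases separate the end of AGO1 from the start of AGO3. None of these 3 was called. AGO1 (ENSG00000092847) had 5.58, 5.35 and 5.75 FPKM in the siHJURP replicates, against 5.86, 4.94 and 5.24 FPKM in the NC replicates, with overlapping groups (log2 0.05, interval -0.10 to 0.20, limma adjusted p = 0.583). AGO4 (ENSG00000134698) had 6.64, 7.19 and 6.88 FPKM in the siHJURP replicates, against 7.20, 6.55 and 7.44 FPKM in the NC replicates. These groups overlapped too (log2 -0.03, interval -0.16 to 0.11, limma adjusted p = 0.73), and the sign of this difference turned after TPM and total-read scaling. AGO3 (ENSG00000126070) had 3.78, 3.35 and 3.50 FPKM in the siHJURP replicates, against 4.17, 3.83 and 4.15 FPKM in the NC replicates. Its groups did not overlap, but the difference missed the threshold (log2 -0.15, SE 0.061, limma adjusted p = 0.0897). On whole reads recovered from the FPKM and analysed with voom, AGO3 was called lower (log2 -0.19, adjusted p = 0.0155).

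Summed over the 4 argonautes, the siHJURP libraries had 24.6, 24.0 and 24.7 FPKM, against 31.7, 26.9 and 30.2 FPKM in NC (exact permutation p = 0.1). The sum was 17.5% lower in siHJURP, and 14.1% to 16.5% lower after TPM, total-read or quantile scaling. AGO2 made up 34.95%, 33.8% and 34.6% of this sum in the siHJURP replicates, against 45.6%, 43.0% and 44.3% in the NC replicates. It was the largest share in every library, and the means of 34.4% ± 0.61 in siHJURP and 44.3% ± 1.3 in NC differed by -9.90 percentage points (exact permutation p = 0.1). AGO1 held 22.8% ± 0.521 in siHJURP and 18.1% ± 0.63 in NC, and AGO4 28.3% ± 1.53 in siHJURP and 23.9% ± 1.03 in NC, each without overlap between the groups (exact permutation p = 0.1). The share of AGO3 overlapped, at 14.5% ± 0.75 in siHJURP and 13.7% ± 0.541 in NC (exact permutation p = 0.3). Shares of one sum are not independent. A smaller AGO2 share leaves a larger one for the other argonautes together, and the same holds for the TNRC6 shares below.

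**Figure D2:**
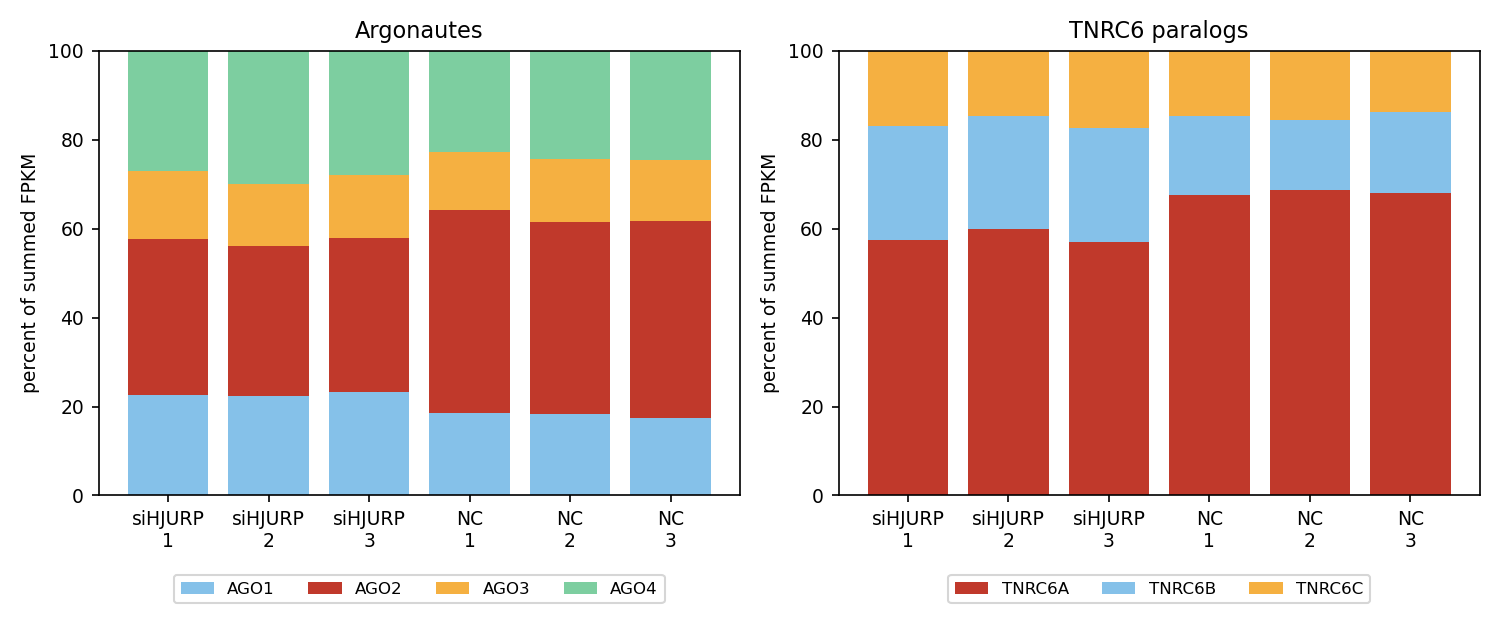
Each bar is 1 library, split by the percent of the summed FPKM of the argonautes (left) and of the TNRC6 paralogs (right) that each gene holds, with siHJURP replicates 1 to 3 left of NC replicates 1 to 3. The red segments, AGO2 and TNRC6A, are smaller in every siHJURP bar than in any NC bar.

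TNRC6A (ENSG00000090905, chromosome 16, 24610209 to 24827632, plus strand), the GW182 scaffold that links argonautes to deadenylases, had the lowest fold change of the 10 genes. It had 8.85, 8.56 and 8.84 FPKM in the siHJURP replicates, against 14.7, 12.7 and 14.1 FPKM in the NC replicates. No siHJURP library came near the NC range. The mean fell to 8.75 ± 0.167 FPKM in siHJURP, against 13.8 ± 1.01 FPKM in NC, a fall of 36.7% (log2 -0.60, SE 0.057, limma adjusted p = 0.000349). This was rank 595 from the lowest of the 13365 fold changes.

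Its paralogs, which share the same role, were lower in level and were not called. TNRC6B (ENSG00000100354, chromosome 22) had 3.97, 3.63 and 3.98 FPKM in the siHJURP replicates, against 3.86, 2.91 and 3.73 FPKM in the NC replicates (log2 0.12, interval -0.10 to 0.33, limma adjusted p = 0.356). TNRC6C (ENSG00000078687, chromosome 17), the lowest of the 10 genes in both groups, had 2.60, 2.08 and 2.70 FPKM in the siHJURP replicates, against 3.19, 2.90 and 2.85 FPKM in the NC replicates. The groups of TNRC6C did not overlap (log2 -0.21, SE 0.088, limma adjusted p = 0.109), and with voom on whole reads it was called lower (log2 -0.28, adjusted p = 0.021). TNRC6A held 57.4%, 60.0% and 57.0% of the summed TNRC6 FPKM in the siHJURP replicates, against 67.6%, 68.6% and 68.1% in the NC replicates. TNRC6B held 25.6% ± 0.162 in siHJURP and 17.2% ± 1.26 in NC (exact permutation p = 0.1 for both shares), and TNRC6C 16.3% ± 1.49 in siHJURP and 14.7% ± 0.914 in NC (exact permutation p = 0.3). The sum itself was 15.1 ± 0.698 FPKM in siHJURP and 20.3 ± 1.64 FPKM in NC, 25.7% lower, and 22.6% to 24.7% lower after the other 3 scalings.

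**Figure D3:**
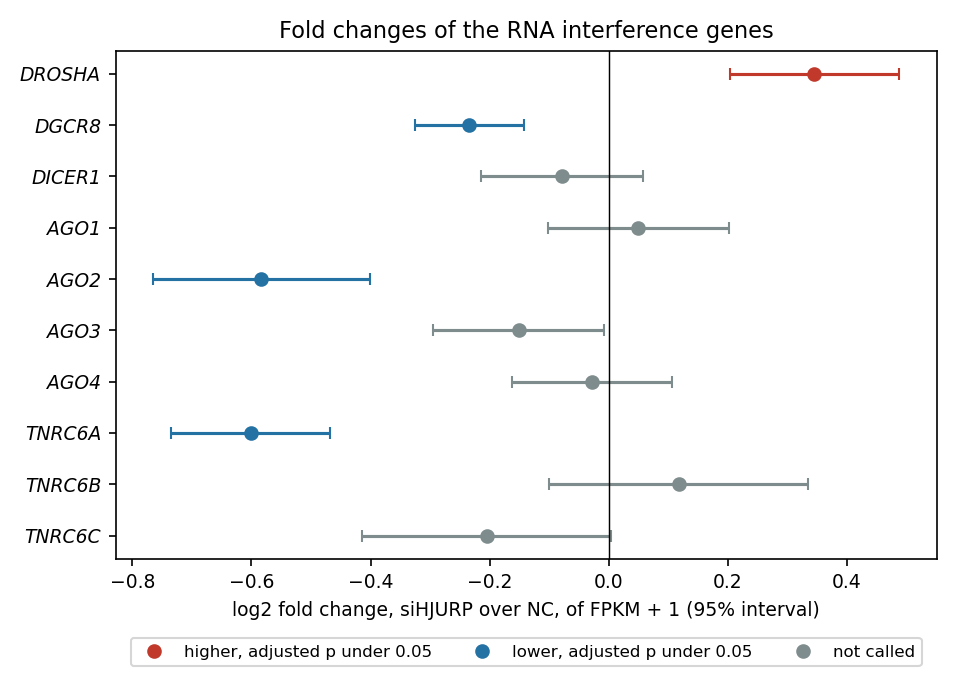
The log2 fold change of FPKM + 1, siHJURP over NC, of each gene (horizontal axis) with its 95% interval from limma, coloured by the call. AGO2 and TNRC6A lie near -0.6, DGCR8 at -0.23 and DROSHA at 0.35, and the intervals of the uncalled genes other than AGO3 reach across 0.

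The order of the levels differed between the groups. In siHJURP cells it ran from DICER1 over DGCR8, DROSHA, TNRC6A, AGO2, AGO4, AGO1, TNRC6B and AGO3 to TNRC6C. The neighbours DGCR8 and DROSHA, TNRC6A and AGO2, and TNRC6B and AGO3 had overlapping ranges. In NC cells the order was DICER1, TNRC6A, AGO2, DGCR8, DROSHA, AGO4, AGO1, AGO3, TNRC6B and TNRC6C, where TNRC6A, AGO2 and DGCR8 overlapped in turn, as did AGO3, TNRC6B and TNRC6C. FPKM divides reads by the annotated exon length of each gene, such as 7267 bases for AGO4 and 21157 bases for AGO3. The order of different genes, and the size of the shares above, therefore depend on that annotation.

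In each group replicate 2 was the low library for most of these genes. Replicate 2 of siHJURP was the lowest siHJURP library for 7 of the 10, for 33.7% of all tested genes and for 46.4% of those whose annotated exons span at least 10000 bases. NC replicate 2 was the lowest NC library for 9 of the 10, for 35.8% of all tested genes and for 66.2% of the 1321 tested genes of that length, a class that holds 7 of the 10. Without siHJURP replicate 2 the count of calls was 4, and without NC replicate 2 all 4 calls remained, with log2 fold changes of -0.67 for AGO2, -0.66 for TNRC6A, 0.31 for DROSHA and -0.26 for DGCR8. Over the long genes as a whole the median log2 fold change was 0.01, with 229 called higher and 247 lower. Interferon response genes differed among the siHJURP libraries: 18 tested members of a list of 20 had a median log2 difference from the NC mean of 1.39, -0.01 and 1.70 in replicates 1, 2 and 3, while the median of the 10 genes was -0.08, -0.14 and -0.13. With replicates 1 and 3 both left out, AGO2 (log2 -0.63, limma adjusted p = 0.0377) and TNRC6A (log2 -0.63, limma adjusted p = 0.0211) were still called. DROSHA (log2 0.26, limma adjusted p = 0.103) and DGCR8 (log2 -0.24, limma adjusted p = 0.0797) were not, in a fit that takes the remaining siHJURP library to vary like the NC libraries.

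The genes whose levels followed AGO2 most closely over the 6 libraries, among 10875 tested protein-coding genes, were SEC14L1 (Pearson r = 0.999), TMEM43 (r = 0.998) and OSBPL3 (r = 0.998). These are descriptions over 2 groups of 3 libraries. SEC14L1, the first of them, had 18.0 ± 0.503 FPKM in siHJURP and 24.9 ± 1.87 FPKM in NC.

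Other genes of the pathway were followed in 5 lists of 119 genes, of which 106 were tested. In siHJURP cells 21 were higher and 29 lower, 47.2% called against 37.9% of all tested genes, with a median log2 fold change of -0.01. The split depended on the scaling. It was 27 higher and 24 lower after TPM scaling, where the split over all tested genes was 3155 higher and 2144 lower in place of 2355 and 2713. Among the 10 genes 4 were called under each of the other scalings. With the filter set at a mean of at least 5 FPKM, 47 of 88 list genes were called, against 3855 of all 7635 tested genes. With siHJURP replicates 1 and 3 both left out, TARBP2, AHSA1, NCBP1, NCBP2, DDX17, ADAR, MCM7, NRDC, WDR82 and MIR100HG were no longer called. PAN3 and HTT, also named here as called, were not looked at singly in that fit.

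**Figure D4:**
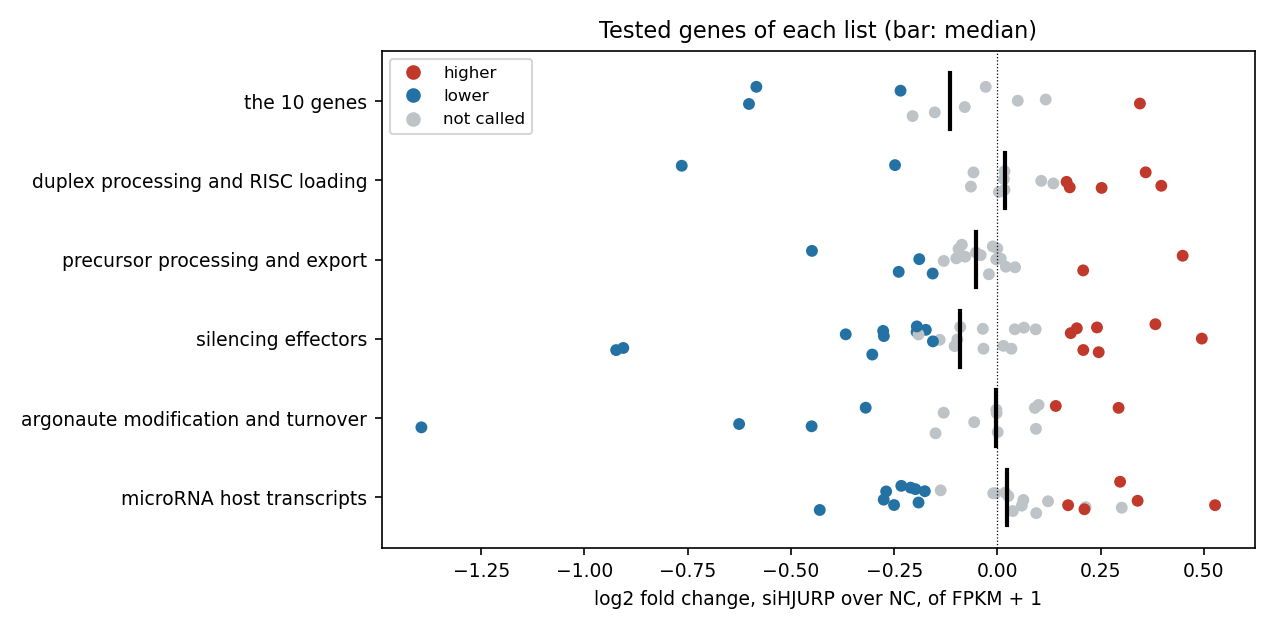
The log2 fold change of FPKM + 1, siHJURP over NC (horizontal axis), of each tested gene of the 10 and of the 5 lists, 1 point a gene, coloured by its call and jittered vertically, with a black bar at each median. Each row holds called genes on both sides of 0, and EGFR is the lowest point at -1.39.

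Of 15 genes that process duplexes or load argonautes, 5 were higher, 2 lower and 8 not called (median log2 0.02). The called share was 46.7%, against 37.9% of all tested genes. TARBP2, the double-stranded RNA-binding partner of DICER1, rose to 8.22 ± 0.257 FPKM in siHJURP, against 6.2 ± 0.643 FPKM in NC (log2 0.36, limma adjusted p = 0.00708). Its relative PRKRA had 15.6 ± 0.602 FPKM in siHJURP and 15.4 ± 0.167 FPKM in NC (limma adjusted p = 0.788). The chaperone HSP90AA1, whose protein family holds argonautes open for loading, rose by 0.40 on the log2 scale and its co-chaperone AHSA1 by 0.25. HSP90AB1, of the same family, was not called, with 738 ± 30.4 FPKM in siHJURP and 729 ± 8.31 FPKM in NC (limma adjusted p = 0.784). CLP1, an RNA kinase that can phosphorylate the 5′ ends of siRNAs, fell to 4.37 ± 0.0883 FPKM in siHJURP, against 8.13 ± 0.614 FPKM in NC (log2 -0.76, limma adjusted p = 0.00015).

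Of 21 tested genes that act on precursors or export them, 2 were higher, 4 lower and 15 not called (median log2 -0.05). Called genes made up 28.6% of them, against 37.9% of all tested genes. KHSRP, which binds the loops of some precursors and promotes their processing, fell to 74.3 ± 1.03 FPKM in siHJURP, against 101.8 ± 1.91 FPKM in NC (log2 -0.45, limma adjusted p = 0.00012). The cap-binding genes NCBP2 and NCBP1 fell by 0.24 and 0.19 on the log2 scale, and the helicase DDX17, a companion of DROSHA, rose by 0.21. The call of NCBP1 was lost without NC replicate 3 (limma adjusted p = 0.0516). The call of DDX17 was lost without siHJURP replicate 1 (0.0924) or 3 (0.0795) without NC replicate 2 (0.053) or 3 (0.0522) and without the filter on low values (0.0797), all limma adjusted p. XPO5, the exporter of hairpins, had 14.6 ± 0.404 FPKM in siHJURP and 15.1 ± 0.714 FPKM in NC (limma adjusted p = 0.417). LIN28A, a blocker of let-7 maturation, had 1 read in 1 siHJURP library and 0 elsewhere.

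ADAR, which edits double-stranded RNA and is itself induced by interferon, was named after its values were seen. Its level was 53.8, 39.5 and 59.8 FPKM in siHJURP replicates 1, 2 and 3, against 37.2, 33.8 and 39.0 FPKM in the NC replicates. Replicates 1 and 3, the libraries with high interferon response genes, were the high ones, and replicate 2 was just above the NC range. The call (log2 0.45, limma adjusted p = 0.0454) was lost without siHJURP replicate 1 (0.128) or 3 (0.118) and without NC replicate 1 (0.0939), 2 (0.12) or 3 (0.0743), all limma adjusted p. It was also lost without the filter on low values (0.148), with robust moderation (0.0688) and without the intensity trend (0.0641).

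Of 29 genes that carry out silencing or decay, 7 were higher, 10 lower and 12 not called (median log2 -0.09). Here 58.6% were called, against 37.9% of all tested genes. DCP1A, an activator of decapping, fell to 5.51 ± 0.106 FPKM in siHJURP, against 11.4 ± 0.863 FPKM in NC (log2 -0.92, limma adjusted p = 7.1e-05). TOB1, an adaptor of the deadenylase complex, fell to 12.1 ± 0.605 FPKM in siHJURP, against 23.5 ± 0.753 FPKM in NC (log2 -0.91). PAN2, the catalytic subunit of a deadenylase that TNRC6 proteins bind, rose by 0.50 on the log2 scale, and the RNA-binding FXR1 by 0.38. PAN3, the partner of PAN2 and named here for that after its values were seen, went the other way, with 6.15 ± 0.564 FPKM in siHJURP and 7.65 ± 0.223 FPKM in NC (log2 -0.28, limma adjusted p = 0.0143). The helicases DDX6 (log2 0.09, limma adjusted p = 0.0974) and MOV10 (log2 -0.14, limma adjusted p = 0.19) did not pass. DDX6 did pass after TPM (0.0293), quantile (0.0309) and total-read scaling (0.0228), all limma adjusted p.

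Of 15 tested genes listed for argonaute modification, turnover or nuclear transport, 2 were higher, 4 lower and 9 not called (median log2 -0.0026). The called share of 40% was near the 37.9% of all tested genes. EGFR, a receptor kinase that can phosphorylate AGO2, fell to 11.6 ± 0.512 FPKM in siHJURP, against 32.3 ± 2.32 FPKM in NC (log2 -1.39, limma adjusted p = 2.21e-05). PPP6C, the phosphatase that with ANKRD52 removes phosphates from AGO2, fell by 0.45 on the log2 scale, and NUP153, of the nuclear pore, by 0.63. ANKRD52 itself had 41.9 ± 3.34 FPKM in siHJURP and 41.9 ± 2.28 FPKM in NC. P4HB, a subunit of the prolyl hydroxylase that modifies AGO2, rose by 0.29. ZSWIM8, a ubiquitin ligase receptor in the turnover of argonautes bound to certain targets, had 7.7 ± 0.842 FPKM in siHJURP and 8.63 ± 0.599 FPKM in NC (limma adjusted p = 0.191).

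Host transcripts, from which microRNA hairpins are cut or spliced, were the last list. Of 26 tested, 5 were higher, 9 lower and 12 not called (median log2 0.02). Called hosts made up 53.8%, against 37.9% of all tested genes. The list also holds HTT (log2 0.30, called higher), in which the RefSeq table used here places no microRNA; without it 4 of 25 were higher, and 20 of 105 over the 5 lists. These libraries measured the hosts and not the mature microRNAs. SKA2, a spindle protein gene, rose to 32.3 ± 0.444 FPKM in siHJURP, against 22.1 ± 1.29 FPKM in NC (log2 0.53, limma adjusted p = 0.000297). NRDC, a metalloprotease gene, rose by 0.21 on the log2 scale. MCM7, a replicative helicase gene, fell to 26.8 ± 0.641 FPKM in siHJURP, against 32.7 ± 0.697 FPKM in NC (log2 -0.28). MIRLET7BHG, a non-coding host of let-7 hairpins, fell to 2.42 ± 0.089 FPKM in siHJURP, against 3.61 ± 0.134 FPKM in NC (log2 -0.43, limma adjusted p = 0.00148).

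Some of the microRNAs that lie within these hosts on the same strand are given from RefSeq (GRCh38.p14). They run 5′ to 3′ with the seed in capitals, so that the hosts can be grouped by the targets their products could share. Other mature sequences from these hosts, among them hsa-miR-3619-5p, are not printed. WDR82 was added after its values were seen, for its let-7 hairpin.
hsa-miR-301a-3p: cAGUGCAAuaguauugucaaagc
hsa-miR-454-3p: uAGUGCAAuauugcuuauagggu
hsa-miR-106b-5p: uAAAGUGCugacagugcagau
hsa-miR-93-5p: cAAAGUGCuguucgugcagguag
hsa-miR-25-3p: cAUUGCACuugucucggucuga
hsa-let-7a-5p: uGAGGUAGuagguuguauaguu
hsa-let-7b-5p: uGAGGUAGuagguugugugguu
hsa-let-7g-5p: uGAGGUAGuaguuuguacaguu
hsa-miR-761: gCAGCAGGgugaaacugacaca
The microRNAs of SKA2, hsa-miR-301a-3p and hsa-miR-454-3p, share 1 seed and lie at chr17:59151149-59151171 and chr17:59137787-59137809 in introns on the minus strand. In MCM7 hsa-miR-106b-5p and hsa-miR-93-5p share another, and hsa-miR-25-3p has a different seed, all in introns on the minus strand at chr7:100094043-100094063, chr7:100093815-100093837 and chr7:100093571-100093592. The let-7 seed is in 2 microRNAs within exons of MIRLET7BHG on the plus strand, at chr22:46112752-46112773 and chr22:46113691-46113712, and in hsa-let-7g-5p within an intron of WDR82 on the minus strand, at chr3:52268336-52268357. The WDR82 transcript had 35.01 ± 0.402 FPKM in siHJURP and 40.3 ± 1.52 FPKM in NC (log2 -0.20, limma adjusted p = 0.00661). The let-7 hairpins were not all in hosts that fell. MIR100HG, also named after its values were seen, holds another copy of hsa-let-7a-5p in an intron (chr11:122146568-122146589, minus strand) and had 2.14 ± 0.277 FPKM in siHJURP and 1.48 ± 0.0218 FPKM in NC (log2 0.34, limma adjusted p = 0.0231). The seed of hsa-miR-761, in a coding exon of NRDC at chr1:51836375-51836396 on the minus strand, is also that of hsa-miR-3619-5p in MIRLET7BHG, so a seed was shared between a host that rose and one that fell. The MIR100HG call was lost without siHJURP replicate 1 (0.0635) or 2 (0.0695) without NC replicate 1 (0.0542), 2 (0.0514) or 3 (0.0626) and without the filter on low values (0.0691), all limma adjusted p. Nothing in the labels says whether the counting used strand, and among the list genes named here PRKRA, HSP90AA1, AHSA1, XPO5, DDX17, PAN2, MOV10, PPP6C, NUP153, MIRLET7BHG, MCM7, SKA2, NRDC, WDR82 and MIR100HG overlap another tested gene whose reads cannot be told apart from theirs. Overlaps of HSP90AB1, PAN3, ANKRD52, HTT and LIN28A were not looked up.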

How the data were processed

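RNA-seq libraries of SKOV3 cells, 3 treated with siHJURP and 3 with the negative control, were grouped by their titles. The authors deposited a table of FPKM per gene for each library. The submitters' processing notes name hg38, featureCounts (version 1.5.0-p3) and HISAT2 (version 2.0.5), with no settings. How the FPKM were scaled is not given in the sources used here. FPKM times gene length came to whole multiples of 1 read in 100% of values (tolerance 0.01 reads), and the library sizes so implied were 1.02 to 1.03 times the summed reads in siHJURP and 0.985 to 0.989 times in NC, so the deposited values already carry a between-library factor. A 3-against-3 exact permutation test cannot go below 0.1.

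Genes averaging 1 FPKM or more were fitted as log2(FPKM + 1), which understates the change of low genes, with limma 3.58.1 in R 4.3.3 (intensity trend, two-sided, Benjamini-Hochberg adjustment), tested on simulated data first. Ratios and shares were compared by two-sided exact permutation tests (scipy 1.17.1, Python 3.11.15). Biotypes and exons came from GENCODE 29, microRNAs from RefSeq. The 10 genes and the lists were chosen with earlier results of these data known. The text names HJURP, the 10 genes, the 4 called genes of lowest adjusted p in each list, 6 direct partners, the 3 genes most like AGO2 and genes overlapping the 10. Further genes are marked as named after their values were seen, or are given for a family member. Same-numbered libraries were not paired by the labels, and their deviations from the group means had correlations of -0.01 to 0.02.

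Alternatives were other pseudocounts, filters and scalings, limma without a trend or with robust moderation, a replicate block, voom on whole reads, protein-coding genes alone, and libraries left out.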

Additional observations from a re-analysis of the deposited data

How the results depend on the processing

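AGO2 and TNRC6A kept their direction and call under all 20 alternatives, with log2 fold changes of -0.67 to -0.52 and -0.66 to -0.55. DROSHA (0.26 to 0.43) and DGCR8 (-0.26 to -0.18) kept theirs in 19 of 20, the exception being siHJURP replicates 1 and 3 left out together. In that fit, which has 1 siHJURP library, 2 of the 10 genes, 17 of the list genes and 1849 of all tested genes were called, against 4, 50 and 5068. The cause was not tested. Leaving out 1 library at a time gave 4 calls among the 10 genes each time, 36 to 45 among the list genes and 3728 to 4713 over all genes. AGO4, never called, changed sign after TPM (0.027) and total-read scaling (0.020), without NC replicate 3 (0.0056) and without siHJURP replicates 1 and 3 (0.024), and lay between -0.0748 and 0.0056 with single libraries left out. XPO5 did so after TPM scaling (0.0047) and PRKRA without siHJURP replicate 2 (-0.0046, and at most 0.0456 with other libraries left out). Voom called 6 of the 10 genes, and also more of all 13365 tested genes, 5747 against 5068 in the main fit. A replicate block, which the labels give no ground for, left 4 calls among the 10 genes, 48 among the list genes and 4527 over all genes. Differences in shares and ratios kept their sign in the alternatives that were run for them. With siHJURP replicate 2 as the only siHJURP library, the TNRC6C share was 14.6%, below the NC mean of 14.7%, so that difference would turn. Depth limits TNRC6C most, at 426 to 607 reads per library, and AGO4 next, at 829 to 963.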
